A study of Mus musculus with 22 samples.

Results

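The tricarboxylic acid cycle enzymes described here were 10 genes encoding subunits of enzymes of the mitochondrial cycle: Cs, Idh3a, Idh3b, Idh3g, Ogdh, Suclg1, Suclg2, Sdha, Fh1 and Mdh2. They were picked as a named set, with no cut on values but with earlier results of these data known, and all 10 were measured, out of 22180 genes with a probe set that names 1 gene. Suclg2 had 2 such probe sets and the other members 1 each, and the brighter of the Suclg2 probe sets was used. Expression was measured in inguinal white fat of male mice on a C57BL/6 background with Affymetrix whole-transcript arrays, 1 mouse per array. There were 22 arrays: 6 wild-type mice at 28 °C, 5 wild-type mice at 5 °C, 6 PPARα-null mice at 28 °C and 5 PPARα-null mice at 5 °C. PPARα is a nuclear receptor for fatty acids, and the null strain carries its deletion in the whole animal. Wild-type and null mice came from separate strains. All groups were 3 to 4 months old at the start, ate chow and first spent 5 weeks at 28 °C, which is thermoneutral for mice. The cold groups then had 1 week at 21 °C and 10 days at 5 °C. For the 28 °C groups the labels give 10 days at 28 °C and no week at 21 °C. The labels report 10 mice housed per group and do not say how the arrayed mice were chosen.

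The cycle oxidises the acetyl group of acetyl-CoA to carbon dioxide and hands the electrons to the respiratory chain as NADH and reduced flavin. Citrate synthase condenses acetyl-CoA with oxaloacetate, later steps split off carbon dioxide on the way to succinate, and succinate is oxidised through fumarate and malate back to oxaloacetate. In brown and beige adipocytes the cycle feeds a respiratory chain that is partly uncoupled, so that fuel is burned for heat.

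Facts that hold for the whole series were checked first. Values were log2 units after RMA, so a difference of 1 is a doubling of signal. The mean of 8 adipocyte markers lay between 10.65 and 11.07 on all arrays, and Adipoq, the adiponectin gene, was never below 9.76. Single markers did change with cold. By limma 0 of the 8 were called higher in either genotype. In wild-type mice 1 was called lower and in null mice 2, where 8.3% and 6.33% of all genes were. Mean Adipoq was 10.20 at 28 °C and 9.84 at 5 °C in wild-type mice, and 10.18 and 9.90 in null mice. Null minus wild-type differences of Ppara signal did not pass at 28 °C (0.16, limma adjusted p = 0.956) or at 5 °C (−0.29, adjusted p = 0.895), and the labels do not place its probes inside or outside the deletion, so it is no check of the genotypes. The mean of 8 brown and beige markers lay between 5.66 and 6.32 at 28 °C and between 9.07 and 9.53 at 5 °C. In a piece of tissue, more cells of a type and more RNA per cell cannot be told apart.

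All 10 cycle enzymes were higher at 5 °C than at 28 °C in both genotypes. In wild-type mice 10 of 10 rose (limma, adjusted p at most 6.30e-05), where 8.35% of all genes were called higher. In null mice 10 of 10 rose (adjusted p at most 2.80e-05), where 6.88% of all genes were called higher. The median cold effect of the members was 0.83 log2 units without the deletion (wild type) and 0.90 with it (null), against medians of 0.01 and −0.00342 over all genes. Effects ran from 0.55 for Suclg2 to 1.43 for Suclg1 in wild-type mice and from 0.60 to 1.41 for the same genes in null mice. No cold array of either genotype was as low as any 28 °C array for any member, a separation that 3.26% of all genes showed (6.27% within wild type and 5.05% within null mice). Since the members were chosen with results known, these shares are given as background. The distance between the lowest cold array and the highest 28 °C array ran from 0.15 log2 units for Suclg2 to 0.77 for Suclg1.

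**Figure D1:**
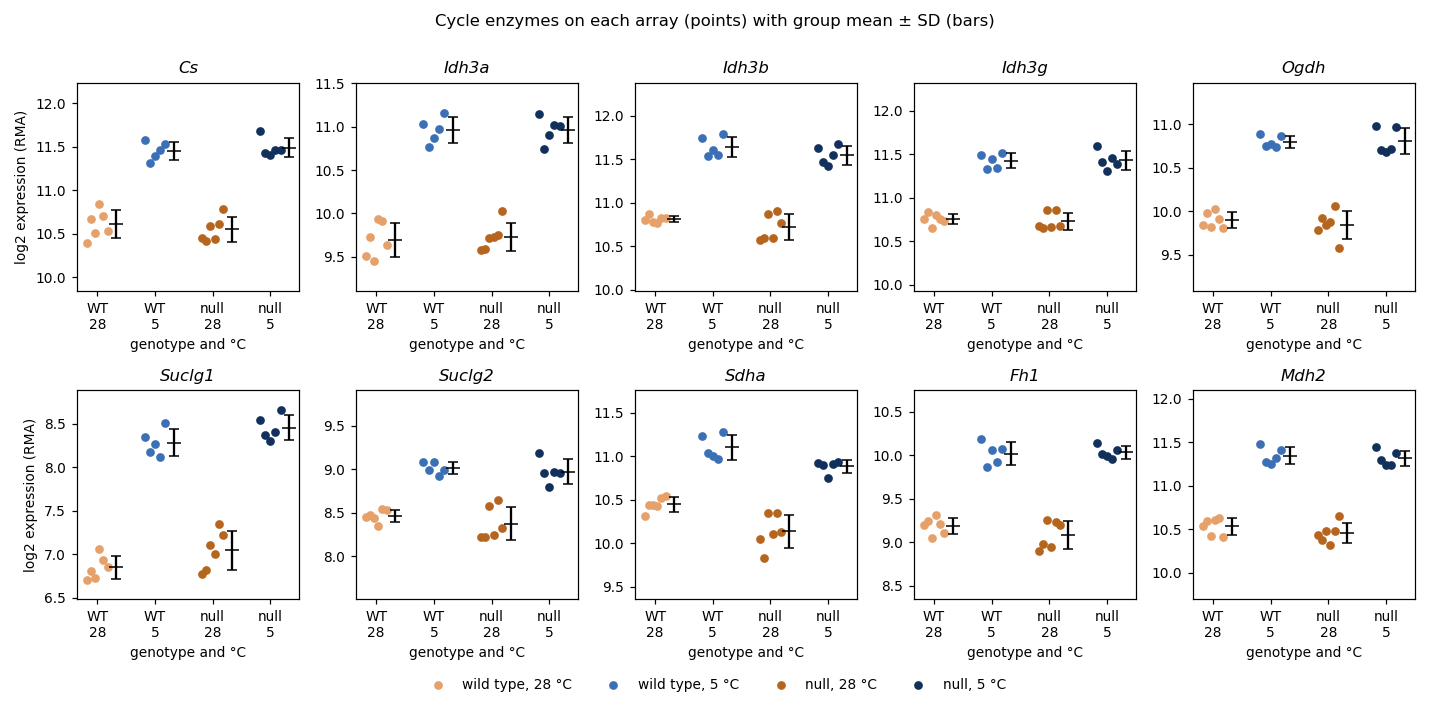
Log2 expression of the 10 enzymes (vertical axis, the same span in each panel) on each array, by genotype (WT is wild type) and housing temperature, with points for arrays and bars for the group mean ± SD (n = 6 at 28 °C and 5 at 5 °C). In every panel both cold groups lie above both 28 °C groups without overlap, as for 3.26% of all genes.

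Citrate synthase, encoded by Cs, takes acetyl-CoA into the cycle and is widely used as a measure of mitochondrial content. In wild-type mice at 28 °C Cs lay between 10.39 and 10.84 with a median of 10.60. The 5 wild-type cold arrays gave 11.58, 11.31, 11.39, 11.46 and 11.53. Null mice had a median of 10.52 and a range of 10.42 to 10.79 at 28 °C, and gave 11.69, 11.43, 11.41, 11.46 and 11.46 at 5 °C. Cold and warm arrays were thus apart in each genotype, and the null cold array with the highest value, replicate 1, stood above the 4 others. The cold effect was 0.85 (SE 0.09, adjusted p = 3.74e-07) for wild type and 0.94 (SE 0.09, adjusted p = 1.22e-07) for null mice, which is 1.80-fold and 1.92-fold in signal.

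NAD-dependent isocitrate dehydrogenase, the next member step, is built from the catalytic subunit Idh3a with Idh3b and the regulatory subunit Idh3g. Idh3a lay between 9.46 and 9.93 (median 9.68) in wild-type mice at 28 °C and gave 11.03, 10.77, 10.87, 10.98 and 11.15 at 5 °C. In null mice it lay between 9.58 and 10.03 (median 9.73) at 28 °C and gave 11.14, 10.74, 10.90, 11.02 and 11.00 at 5 °C. The groups at the 2 temperatures did not overlap, and within 28 °C the arrays spread more for Idh3a (SD 0.20 and 0.16) than for Idh3g (0.06 and 0.10). Idh3a rose by 1.26 (SE 0.10) for wild type and 1.23 (SE 0.10) for null mice, or 2.40-fold and 2.34-fold. Idh3b rose by 0.84 and 0.83 (SE 0.08 each), and Idh3g by 0.67 and 0.70 (SE 0.07 each). The array signals of these subunits differed in the size of their rise. The rise of Idh3a exceeded that of Idh3b by 0.43 for wild type (exact permutation test, two-sided, p = 0.00649, adjusted p = 0.00952) and 0.40 for null mice (exact p = 0.00433, adjusted p = 0.00794), and that of Idh3g by 0.59 (exact p = 0.00216, adjusted p = 0.00433) and 0.52 (exact p = 0.00649, adjusted p = 0.00952). The rise of Idh3b exceeded that of Idh3g by 0.17 in wild-type mice (exact p = 0.00216, adjusted p = 0.00433), and in null mice the difference of 0.13 did not pass (exact p = 0.0411, adjusted p = 0.0532).

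These comparisons of genes used the difference of 2 log2 values within each array, so that any factor common to an array cancels. They compare folds of array signal: how each probe set responds to a change in RNA does not cancel, and its part was not tested. The results cover 11 pairs of subunits, steps or isoenzymes. The 22 tests, 11 in each genotype, were adjusted together, and each used every assignment of the arrays of 1 genotype to the temperatures, for which 0.00216 is the smallest p. In wild-type mice 9 pairs passed and in null mice 7.

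**Figure D2:**
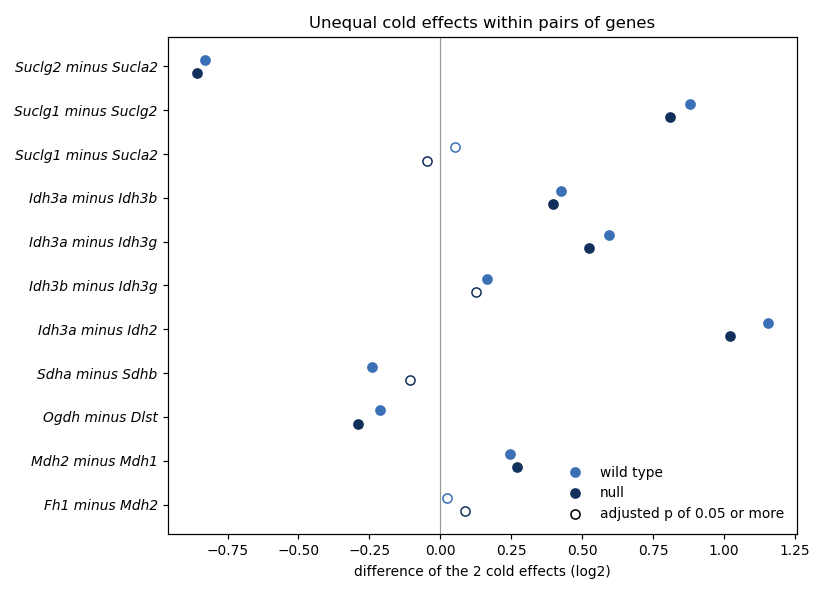
Difference of the cold effects of 2 genes in log2 units (horizontal axis), measured within arrays, for 11 pairs (rows) in wild-type and null mice. Filled points passed the exact permutation test at an adjusted p under 0.05, and open points did not. Suclg2 rose less than Sucla2 and Suclg1, and Idh3a rose more than Idh3b, Idh3g and Idh2, in both genotypes.

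Ogdh encodes the dehydrogenase subunit of the 2-oxoglutarate dehydrogenase complex, which turns 2-oxoglutarate into succinyl-CoA. It lay between 9.81 and 10.03 in wild-type and between 9.58 and 10.06 in null mice at 28 °C, with medians of 9.88 and 9.86. At 5 °C it gave 10.89, 10.75, 10.77, 10.74 and 10.86 in wild-type and 10.98, 10.70, 10.68, 10.72 and 10.96 in null mice. The change was 0.90 (SE 0.08, adjusted p = 6.97e-08) for wild type and 0.96 (SE 0.08, adjusted p = 3.77e-08) for null mice, with every cold array above every warm one. The other subunits of this complex rose as well: Dlst, its succinyltransferase, by 1.11 and 1.25, and Dld, the dihydrolipoamide dehydrogenase shared with other dehydrogenase complexes, by 1.04 and 1.02. Ogdh rose less than Dlst, by −0.21 for wild type (exact permutation p = 0.00216, adjusted p = 0.00433) and −0.29 for null mice (exact p = 0.0216, adjusted p = 0.0298). The null value missed the threshold when any null array other than 28 °C replicate 6 was left out (−0.32 to −0.25, adjusted p = 0.0524 to 0.0655).

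Succinyl-CoA ligase makes succinate and a nucleoside triphosphate. Its alpha subunit, Suclg1, pairs with one of 2 beta subunits, Suclg2, which makes GTP, or Sucla2, which makes ATP. The members with the largest and the smallest rise were thus subunits of the same enzyme. Suclg1 (GRCm38.p6, chromosome 6, 73248505 to 73276907) and Suclg2 (chromosome 6, 95473009 to 95718858) lie on the same chromosome. Their upstream sequences, 250 bases that end just before a RefSeq transcript start (chr6:73248255-73248504 on the plus strand and chr6:95718847-95719096 on the minus strand), are shown because these members marked the ends of the range. The Suclg2 window overlaps the end of the gene span given above, so its transcript start lies inside that span. Capitals would mark a match to a motif searched, and these windows hold none.
Suclg1: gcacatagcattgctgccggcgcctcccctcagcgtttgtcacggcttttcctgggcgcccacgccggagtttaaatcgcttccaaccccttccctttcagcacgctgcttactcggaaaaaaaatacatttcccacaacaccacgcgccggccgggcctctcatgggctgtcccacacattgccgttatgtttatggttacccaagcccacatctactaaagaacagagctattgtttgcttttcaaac
Suclg2: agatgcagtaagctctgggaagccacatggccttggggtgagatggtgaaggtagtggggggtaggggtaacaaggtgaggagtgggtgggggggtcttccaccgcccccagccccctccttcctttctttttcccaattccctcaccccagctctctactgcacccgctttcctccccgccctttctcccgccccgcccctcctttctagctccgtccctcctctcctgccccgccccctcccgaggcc
The letters G and C made up 53.2% of the first window and 64.4% of the second.

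Suclg1 lay between 6.71 and 7.06 (median 6.83) in wild-type mice at 28 °C and gave 8.34, 8.17, 8.26, 8.12 and 8.51 at 5 °C. In null mice it lay between 6.77 and 7.35 (median 7.05) at 28 °C and gave 8.55, 8.37, 8.30, 8.41 and 8.66 at 5 °C. It rose by 1.43 (SE 0.10, adjusted p = 4.71e-09) and 1.41 (SE 0.10, adjusted p = 6.76e-09), or 2.70-fold and 2.66-fold, and stood at rank 58 and 45 of 22180 genes by cold effect. Suclg2 lay between 8.34 and 8.54 (median 8.46) in wild-type mice at 28 °C and gave 9.09, 8.98, 9.08, 8.92 and 8.99 at 5 °C. In null mice it lay between 8.22 and 8.64 (median 8.28) at 28 °C and gave 9.19, 8.96, 8.79, 8.96 and 8.95 at 5 °C. Its groups came closest to each other in null mice, where 2 of the 28 °C arrays were at 8.58 and 8.64. Suclg2 rose by 0.55 (SE 0.08, adjusted p = 6.30e-05) and 0.60 (SE 0.08, adjusted p = 2.80e-05), or 1.47-fold and 1.52-fold. Its second probe set was dim, with a mean of 3.98, and changed by 0.46 and 0.15. With the mean of both probe sets the null value was 0.38 (adjusted p = 0.00847).

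Sucla2 rose by 1.38 for wild type (SE 0.10, adjusted p = 6.85e-09) and 1.46 for null mice (SE 0.10, adjusted p = 4.91e-09). Within arrays, Suclg2 fell against Sucla2 by 0.83 (wild type) and 0.86 (null; exact permutation p = 0.00216 and adjusted p = 0.00433 each). Suclg1 gained on Suclg2 by 0.88 and 0.81 (exact p = 0.00216 and adjusted p = 0.00433 each). Suclg1 and Sucla2 differed in their rise by 0.05 for wild type and −0.05 for null mice, which did not pass (exact p = 0.238 and 0.348, adjusted p = 0.262 and 0.365). The alpha subunit and the ATP-forming beta subunit thus had the larger rises and the GTP-forming beta subunit the smaller one. Leaving out any 1 array kept the value between −0.88 and −0.78 for Suclg2 minus Sucla2 in wild-type and between −0.91 and −0.82 in null mice.

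Succinate dehydrogenase oxidises succinate to fumarate and is also complex II of the respiratory chain. Its flavoprotein subunit, Sdha, lay between 10.31 and 10.55 (median 10.43) in wild-type mice at 28 °C and gave 11.23, 11.03, 11.00, 10.97 and 11.28 at 5 °C. In null mice it lay between 9.83 and 10.35 (median 10.12) at 28 °C and gave 10.92, 10.90, 10.75, 10.92 and 10.93 at 5 °C. Sdha rose by 0.66 (SE 0.09, adjusted p = 1.11e-05) for wild type and 0.75 (SE 0.09, adjusted p = 2.35e-06) for null mice, and in each genotype all cold arrays were above all warm ones. The iron-sulfur subunit Sdhb rose by 0.90 and 0.86, and the membrane anchors Sdhc and Sdhd by 0.70 and 0.67 and by 1.12 and 1.26. Sdha rose less than Sdhb in wild-type mice, by −0.24 (exact permutation p = 0.00216, adjusted p = 0.00433), while the difference of −0.11 in null mice did not pass (exact p = 0.104, adjusted p = 0.127) and did without null 5 °C replicate 2 (−0.16, adjusted p = 0.0196). Whether the 2 genotypes differ in this value was not tested.

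Fumarase, encoded by Fh1, adds water to fumarate, and mitochondrial malate dehydrogenase, Mdh2, closes the cycle. Fh1 gave 10.19, 9.87, 10.06, 9.92 and 10.07 in wild-type and 10.15, 10.02, 9.99, 9.96 and 10.06 in null mice at 5 °C, against ranges of 9.05 to 9.32 and 8.90 to 9.26 at 28 °C. Mdh2 gave 11.48, 11.27, 11.25, 11.32 and 11.41 in wild-type and 11.44, 11.30, 11.24, 11.25 and 11.37 in null mice at 5 °C, against ranges of 10.41 to 10.63 and 10.32 to 10.65 at 28 °C. Both genes had cold arrays clear of warm arrays. Fh1 rose by 0.83 and 0.95 (SE 0.08 each) and Mdh2 by 0.81 and 0.86 (SE 0.07 each), and their rises differed by 0.02 for wild type (exact permutation p = 0.621, adjusted p = 0.621) and 0.09 for null mice (exact p = 0.141, adjusted p = 0.163), neither of which passed.

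**Figure D3:**
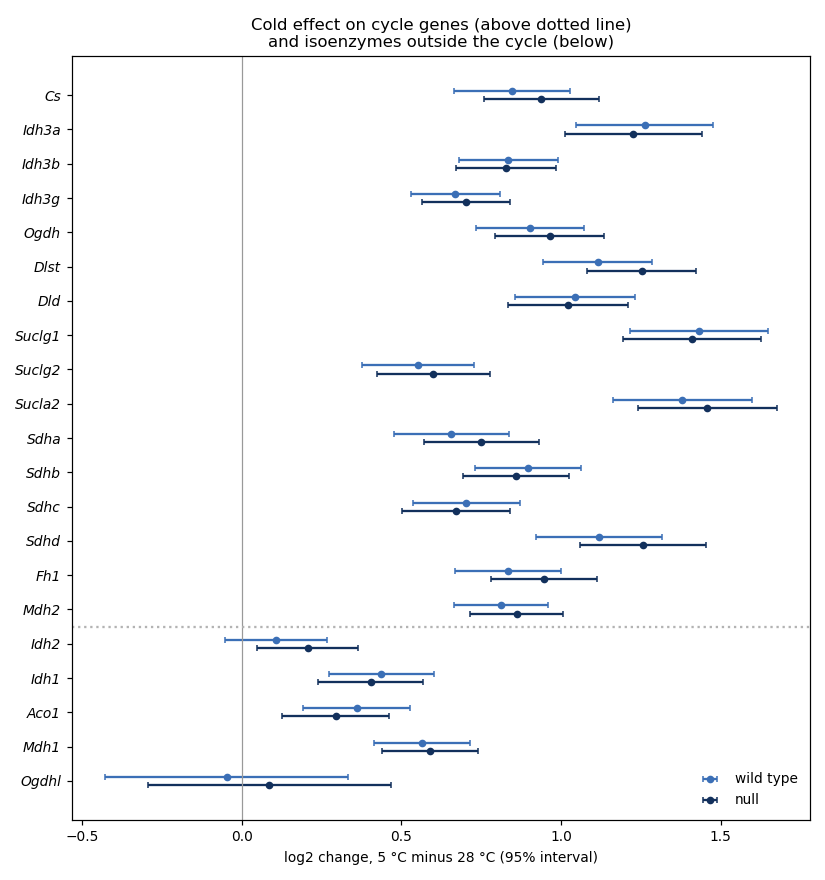
Cold effect in log2 units (horizontal axis, 5 °C minus 28 °C, with 95% intervals from limma) in wild-type and null mice. Cycle genes are above the dotted line, and isoenzymes or relatives not counted among them are below it. Effects above the line lie between 0.55 for Suclg2 and 1.46 for Sucla2. Those below it lie between −0.05 for Ogdhl, which was dim, and 0.59 for Mdh1.

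Further subunits of the cycle rose throughout, as the members did, while other genes around the members moved less uniformly. Of the 6 measured further subunits of the cycle, all 6 rose in each genotype, with medians of 1.08 and 1.14. Over all genes 8.35% were called higher in wild-type and 6.88% in null mice. Of 5 isoenzymes or relatives of cycle enzymes not counted among the cycle genes, 3 rose in each genotype, with medians of 0.36 and 0.30. These were cytosolic malate dehydrogenase Mdh1 (0.56 and 0.59), cytosolic isocitrate dehydrogenase Idh1 (0.44 and 0.40) and cytosolic aconitase Aco1 (0.36 and 0.30). Idh2, the NADP-dependent isocitrate dehydrogenase of mitochondria, changed by 0.11 (adjusted p = 0.395) and 0.21 (adjusted p = 0.0837), and Ogdhl, a relative of Ogdh, by −0.05 and 0.09. Ogdhl was dim, with 27.3% of all genes below its mean signal, so its values say little. Idh3a gained on Idh2 by 1.16 for wild type (exact permutation p = 0.00216, adjusted p = 0.00433) and by 1.02 for null mice (exact p = 0.00216, adjusted p = 0.00433), and Mdh2 on Mdh1 by 0.25 (exact p = 0.00649, adjusted p = 0.00952) and 0.27 (exact p = 0.00216, adjusted p = 0.00433).

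Assembly factors of succinate dehydrogenase gave 3 of 4 called higher in wild-type and 1 of 4 in null mice, where 8.35% and 6.88% of all genes were. Sdhaf1 rose in both (0.59 and 0.50). Sdhaf4 gave 0.57 for wild type (adjusted p = 0.00231) and 0.32 for null (adjusted p = 0.104). Sdhaf3 gave 0.34 (adjusted p = 0.0386) and 0.30 (adjusted p = 0.0874), and Sdhaf2 0.12 and 0.05. None of the 4 passed in the difference of the cold effects.

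Enzymes and carriers that bring carbon into the cycle or take it out were mixed. Of 15 measured, wild-type mice had 9 higher and 1 lower, null mice had 8 higher, and the medians were 0.44 and 0.43. Over all genes 8.35% were called higher and 8.3% lower in wild-type mice, and 6.88% higher in null mice. The largest of the rises named here was in Mpc1, a subunit of the mitochondrial pyruvate carrier (1.15 and 1.34). Malic enzymes Me1 (1.03 and 1.00) and Me3 (0.84 and 0.95) rose, and so did the cytosolic aspartate aminotransferase Got1 (0.60 and 0.86) and the oxoglutarate carrier Slc25a11 (0.39 and 0.60). Of these Me3 was the dimmest, with 48.7% of all genes below its mean signal. Pck2, mitochondrial phosphoenolpyruvate carboxykinase, fell by 0.33 in the wild-type groups (adjusted p = 0.00329), its null value was −0.16 (adjusted p = 0.197), and the difference of these effects, 0.17, did not pass (adjusted p = 0.980). Values below 0 that did not pass were those of Got2, the mitochondrial aspartate aminotransferase (−0.22 and −0.15), and Me2, a mitochondrial malic enzyme (−0.01 and −0.14).

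Regulators of mitochondrial genes also differed among themselves. Of 9 measured, wild-type mice had 5 higher and null mice 7, where 8.35% and 6.88% of all genes were called higher. The coactivators Ppargc1b (1.48 and 1.47) and Ppargc1a (1.25 and 1.20) and the estrogen-related receptors Esrra (0.80 and 0.53) and Esrrg (0.56 and 0.83) rose in both, as did the mitochondrial deacetylase Sirt3 (0.51 and 0.64). Nrf1, nuclear respiratory factor, was at −0.07 and −0.01, Esrrb at −0.27 and −0.06, and Gabpa, an ETS factor, at 0.19 (adjusted p = 0.0922) and 0.37 (adjusted p = 0.00208). Esrrb was dim, with 26.2% of all genes below its mean signal, so its values say little. Esrrg lay near the middle, with 49.7% below.

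Upstream sequence was available for 9 of the 10 members, from RefSeq on GRCm38.p6, 1 window each but 6 for Ogdh. The windows were searched on both strands for the estrogen-related receptor site TNAAGGTCA, its core AAGGTCA, the NRF1 core GCGCNTGCG and the ETS core CCGGAAG. The core AAGGTCA, which the longer site contains, was found upstream of 0 of 9 members and of 4.71% of 26994 genes with windows of the same length, and TNAAGGTCA upstream of 0 of 9 and 1.30%. The NRF1 core was found for 3 of 9 members, Idh3g, Ogdh (in 2 overlapping windows) and Sdha, and for 5.87% of all genes. The ETS core was found for 1, Idh3g, and for 7.82% of all genes. The windows of Idh3g (chrX:73786898-73787147, minus strand) and Sdha (chr13:74350241-74350490, minus strand) are shown because they hold more than 1 match each, in capitals.
Idh3g: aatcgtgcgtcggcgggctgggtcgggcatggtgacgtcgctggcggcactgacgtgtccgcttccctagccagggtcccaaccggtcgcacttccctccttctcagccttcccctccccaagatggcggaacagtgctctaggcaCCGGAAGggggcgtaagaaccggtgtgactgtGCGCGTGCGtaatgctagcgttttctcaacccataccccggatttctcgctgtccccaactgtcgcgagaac
Sdha: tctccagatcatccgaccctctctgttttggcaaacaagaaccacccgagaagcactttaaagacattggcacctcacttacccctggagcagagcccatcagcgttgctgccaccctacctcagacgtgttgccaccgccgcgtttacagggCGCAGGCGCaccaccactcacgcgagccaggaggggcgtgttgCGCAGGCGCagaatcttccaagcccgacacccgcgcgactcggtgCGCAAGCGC
In Idh3g the ETS match began 104 bases and the NRF1 match 72 bases before the transcript start. In Sdha the NRF1 matches began 97, 54 and 9 bases before it, all on the opposite strand.  These are matches of letters and no evidence of binding.

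Whether the cold response of these enzymes differed between the genotypes was addressed by the difference of the cold effects, null minus wild type. Wild-type and null mice came from separate strains. Loss of the receptor and other strain differences therefore cannot be told apart in null minus wild-type values. By limma 0 of 10 members passed, and 0 had an unadjusted p under 0.05, where 0% of all genes were called and 1137 genes had an unadjusted p under 0.05. Differences ran from −0.04 for Idh3a to 0.11 for Fh1, with 7 of 10 above 0. The 95% interval was −0.34 to 0.27 for Idh3a, −0.33 to 0.28 for Suclg1, −0.16 to 0.35 for Cs, −0.16 to 0.35 for Sdha and −0.12 to 0.35 for Fh1. Over all members these intervals stayed between −0.34 and 0.35, while the lower 95% bound of the null cold effect itself was 0.42 or more for each member. Differences within these intervals could not be resolved with this number of arrays. Over the 16 skeletal muscle markers the median of the same difference was 1.04, with 0 of 16 called and 0 at an unadjusted p under 0.05.

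Genotypes were then compared at each temperature. At 28 °C 0 of 10 members passed (limma, 0.194% of all genes called) and 1 had an unadjusted p under 0.05, and at 5 °C likewise 0 of 10 passed (0.149% of all genes) and 1 did so. That member was Sdha in both cases. Its difference was −0.31 at 28 °C (limma, SE 0.08, 95% interval −0.48 to −0.14, adjusted p = 0.276) and −0.22 at 5 °C (SE 0.09, −0.41 to −0.03, adjusted p = 0.676). At 28 °C all 6 null arrays lay below the wild-type median of 10.43, but the groups overlapped, with 9.83 to 10.35 against 10.31 to 10.55. At 5 °C the highest null array, at 10.93, was below the lowest wild-type array, at 10.97, as for 0.654% of all genes. Muscle markers were also lower in null mice at 28 °C, with a median difference of −1.59, 11 of 16 at an unadjusted p under 0.05 and 0 called. With their mean as a covariate the Sdha difference was −0.31 at 28 °C and −0.22 at 5 °C. That mean itself differed between the genotypes at 28 °C, with 6.47 in null and 7.84 in wild-type mice. The part of muscle in the Sdha difference was not tested, and loss of the receptor and strain cannot be told apart in it. Suclg1 had the largest value above 0, at 0.20 (adjusted p = 0.760) and 0.17 (adjusted p = 0.854). For the other 8 members the values at 28 °C ran from −0.10 to 0.04, and 8 of all 10 were below 0 at 28 °C and 4 at 5 °C.

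**Figure D4:**
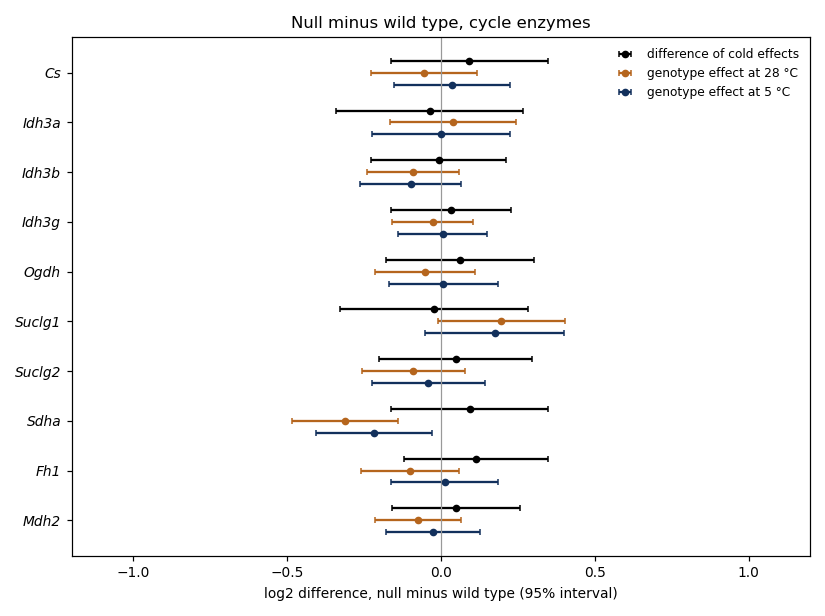
Null minus wild-type differences in log2 units (horizontal axis, with 95% intervals from limma) of the 10 enzymes, for the cold effect, at 28 °C and at 5 °C. The intervals of the differences of the cold effects lie between −0.34 and 0.35, and only those of Sdha at 28 °C and at 5 °C leave out 0.

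The members also varied together from mouse to mouse within a group. With each group's mean subtracted, all 45 pairs of members had a correlation above 0 over the 22 arrays, with a median r of 0.60 and a range of 0.19 (Idh3a with Suclg2) to 0.88 (Cs with Idh3a). The arrays share tissue, processing and scaling, so this is a description. Whether other sets of genes vary together as much was not tested. Suclg1 followed the mean of the other members most closely (r = 0.86) and Ogdh least (r = 0.45). In wild-type mice at 5 °C all 10 members were above their group mean on replicate 1 and none was on replicate 2. In null mice all 10 were above it on 28 °C replicate 5 and on 5 °C replicate 1. The largest deviation of any array from its group mean was 0.30, below the cold effect of each member.

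**Figure D5:**
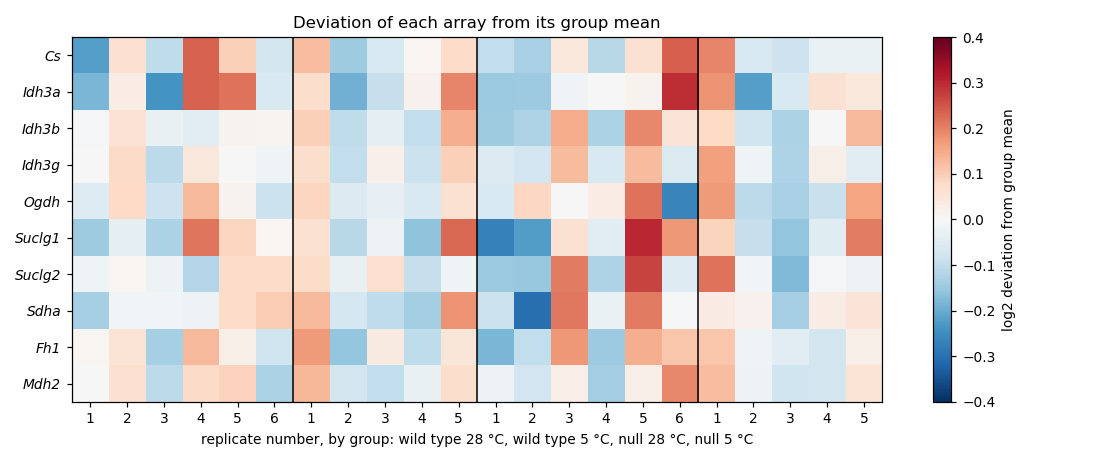
Deviation of each array from its group's mean in log2 units (colour, red above and blue below) for the 10 enzymes (rows) on the 22 arrays (columns, by group and replicate number). Columns tend to hold 1 colour, as on wild-type 5 °C replicate 1, where all 10 are above the mean, and wild-type 5 °C replicate 2, where none is.

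Outside the lists above, the genes whose values followed the mean of the members most closely over the 22 arrays were Hadha, a subunit of the mitochondrial trifunctional protein (r = 0.995, rho = 0.958), Uqcrc2, a core subunit of complex III (r = 0.994, rho = 0.972), the potassium channel gene Kcna4 (r = 0.994, rho = 0.983), Cycs, which encodes cytochrome c (r = 0.992, rho = 0.957), and Uqcrfs1, the Rieske protein of complex III (r = 0.992, rho = 0.948). Their cold effects were 1.43, 0.94, 1.52, 1.21 and 1.28 in wild-type mice. With group means subtracted, the closest were Kcna4 (r = 0.947), Uqcrc2 (r = 0.911), Hadha (r = 0.909), Atp5pb, a subunit of ATP synthase (r = 0.908), and Acadvl, a dehydrogenase of very long chain fatty acids (r = 0.886). Kcna4, Uqcrc2 and Hadha were among the 5 closest by both measures.

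Markers of some other cell types moved too. Of 10 macrophage markers 10 fell in each genotype (medians −0.66 and −0.61), where 8.3% of all genes were called lower in wild-type mice and 6.33% in the null group. Their mean lay between 8.57 and 8.90 on the 28 °C arrays and between 7.96 and 8.31 on the cold arrays. Of 9 fibroblast and matrix markers 8 fell in each, with means of 10.30 to 10.59 at 28 °C and 9.71 to 9.92 at 5 °C. Their part in the rise of the cycle enzymes was not tested. Skeletal muscle, which is rich in these enzymes, was present in some pads: the mean of 16 muscle markers ranged from 5.44 to 8.88 on null and from 5.85 to 9.39 on wild-type arrays, and 0 of the 16 passed with cold (limma, with 1 at an unadjusted p under 0.05 in wild-type and 0 in null mice). Their median cold effects had opposite signs, −0.64 in wild-type mice and 0.46 in the null group. With that mean as a covariate the median cold effect of the members was 0.83 for wild type and 0.89 for null mice, and all 10 rose in each. The part of muscle in the rise of the cycle enzymes was not tested. The mean of 11 B and T cell markers ranged from 4.07 to 8.14 over all arrays, with 0 of 11 called and 0 at an unadjusted p under 0.05 in each genotype. Of 7 endothelial markers, wild-type mice had 1 called higher (8.35% of all genes) and 1 lower (8.3% of all genes), and 5 did not pass. Null mice had 1 called lower (6.33% of all genes), and 6 did not pass.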

How the data were processed

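Deposited values were log2 expression values per probe set, which the authors obtained with RMA, per the submitters' processing notes, in which no version is named. Of 41345 probe sets, 23521 had 1 gene symbol, 1814 several and 16010 none in the platform annotation of GEO; the probe set with the highest mean stood for each of 22180 genes. RMA as usually run equalises the distributions of arrays, so a change common to most genes cannot be seen.

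All genes were fitted with limma (3.58.1, R 4.3.3), with the 4 groups in 1 model (18 residual and 3.35 prior degrees of freedom), and p-values were adjusted by Benjamini-Hochberg over all genes, called under 0.05. Pairs of genes were compared with exact two-sided permutation tests of within-array differences. The members, lists, pairs and named genes were chosen with earlier results of these data known: all members, up to 6 of each further list by wild-type p with exceptions, and the 5 closest genes by correlation. Alternatives were array medians subtracted, quantile normalization, filters on dim genes (25% and 50%), mean of probe sets, trend and robust eBayes, array weights, fewer groups, a replicate block, a muscle covariate and each array left out. Arrays have no read depth, and their number limits the precision.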

Additional observations from a re-analysis of the deposited data

Results flagged for a closer look

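Of the 40 sets of arrays examined (10 members in 4 groups), 3 had an array far from the others, and chance flags about 1 in 20. Cs in null mice at 5 °C had its highest array at 11.69 (replicate 1), with the next at 11.46. Idh3a in null mice at 28 °C had its highest array at 10.03 (replicate 6), with the next at 9.75. These were the arrays with the highest muscle marker means of their groups, 8.88 and 7.93. The array with the highest muscle marker mean of all was wild-type 5 °C replicate 2, at 9.39. It had the lowest Cs (11.31) and Idh3a (10.77) of its group. The part of muscle in these values was not tested. With group means subtracted, the correlation with the muscle marker mean over 22 arrays was 0.16 for Cs and 0.20 for Idh3a, and −0.11 to 0.26 over the members. Sdha in null mice at 5 °C had its lowest array at 10.75 (replicate 3), with the next at 10.90.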

How the results depend on the processing

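All 10 members were called higher in the cold in each genotype, and none passed for the genotype effects or their change with cold, under every alternative run. The median cold effect of the members was 0.80 to 0.90 in wild-type and 0.86 to 0.94 in null mice over all alternatives, highest with array medians subtracted. The lowest value of any member was 0.38, for Suclg2 in null mice with the mean of its probe sets (adjusted p = 0.00847, the largest over all alternatives). With the replicate number as a replicate block the medians were 0.84 and 0.90, and no member's call changed. Same-numbered arrays of 2 groups did not deviate together (r from −0.25 to 0.18, with 1 of 20 over 0.1), so the numbers were not taken to pair the mice. Of 22 tests of pairs, 16 passed, and 15 to 17 did with 1 array left out. Idh3b minus Idh3g in null mice passed with the replicate block in limma (0.14, adjusted p = 0.0130) and without null 28 °C replicate 6 (0.15, adjusted p = 0.0308). Sdha at 28 °C kept an adjusted p of 0.0831 or more.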
